A study of Mus musculus with 2 samples.

Results

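The 7 mature miRNAs described here come from the miR-23a/27a/24-2 and miR-23b/27b/24-1 clusters, and were found by their names among the 1915 distinct mature miRNAs listed for exosomes of the mouse colorectal carcinoma line CT26. They are mmu-miR-23a-3p, mmu-miR-27a-3p, mmu-miR-23b-3p, mmu-miR-27b-3p, mmu-miR-24-3p, mmu-miR-24-1-5p and mmu-miR-24-2-5p, and 6 of the 7 had a read in at least 1 library. Exosomes are small vesicles that cells release with RNA inside. Small RNA libraries were sequenced for exosomes from parental CT26 cells, an established line of Balb/C origin, and from sphere-derived cancer stem cells (SDCSCs), the same line grown as spheroids for 2 weeks in serum-free DMEM/F12 medium with N2 supplements, bFGF and EGF at 10 ng/ml each. Parental exosomes were collected in complete DMEM with exosome-depleted serum, so medium and cell state differ together and cannot be told apart. Each condition has 1 library, no value below has a replicate check, and every interval or test covers counting error only. Reads amplified by PCR are not independent molecules, so even this error may be understated.

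MicroRNAs are cut from hairpin precursors, and the strand from either arm (5p or 3p) can be loaded into a silencing complex, which finds target mRNAs mainly through the seed, bases 2 to 8 of the miRNA. Each of these clusters is transcribed as a common primary RNA that carries a miR-23, a miR-27 and a miR-24 hairpin, so that the partners can be made together while the mature levels also depend on the processing and decay of each. The clusters are duplicates of each other and give near-identical products. In tumour biology miR-23a and miR-23b are known as repressors of glutaminase that MYC holds down, miR-27a and miR-27b as repressors of the adipogenic factor PPARG, and miR-24 as a brake on cell cycle genes such as E2F2.

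The mature sequences below are shown because the comparisons turn on how far the members can be told apart by sequence. They are RefSeq sequences on GRCm38.p6, matched by name for 6 of the 7 members, all but mmu-miR-23b-3p, and are written 5′ to 3′ with the seed in capitals.

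mmu-miR-23a-3p: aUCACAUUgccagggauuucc

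mmu-miR-27a-3p: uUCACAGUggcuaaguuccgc

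mmu-miR-27b-3p: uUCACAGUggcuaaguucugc

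mmu-miR-24-3p: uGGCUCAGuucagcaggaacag

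mmu-miR-24-2-5p: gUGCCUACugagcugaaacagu

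mmu-miR-24-1-5p: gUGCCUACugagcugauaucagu

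Over their 21 bases, mmu-miR-27a-3p and mmu-miR-27b-3p differ by the substitution C19U, counted from 1 at the 5′ end with the base of miR-27a first. Their first 18 bases are the same. Reads were kept from 18 nucleotides upward, so the shortest reads from the 5′ end fit both miRNAs. Whether short reads also fit both mmu-miR-23a-3p and mmu-miR-23b-3p was not checked, as the latter had no sequence in the set. Values that keep these paralogs apart carry this limit. The mature miR-24-3p is identical from both clusters and cannot be assigned to either of them. The 5p arms of the miR-24 precursors share their first 16 bases and the seed, and differ after them, so longer reads name the locus. The miR-27 seed (UCACAGU) was found in no other mature miRNA of the RefSeq set. The seed of miR-24-3p (GGCUCAG) was shared by 4 others, and none of these had a read in either library.

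On chromosome 8, Mir23a (84208518 to 84208592), Mir27a (84208672 to 84208758) and Mir24-2 (84208815 to 84208921) lie on the plus strand within 404 bases. No protein-coding gene of the GENCODE annotation of GRCm38 overlaps these precursors, and the end of Mir24-2 touches the lincRNA Gm26532. On chromosome 13, Mir23b (63300484 to 63300557), Mir27b (63300712 to 63300784) and Mir24-1 (63301208 to 63301275) lie on the plus strand within 792 bases, inside the protein-coding gene 2010111I01Rik on the same strand and Fancc on the opposite strand. Mir23b overlaps no exon of these genes. Mir27b overlaps exons of 2010111I01Rik transcripts of the nonsense-mediated decay type. Mir24-1 overlaps exons of this gene in transcripts of the nonsense-mediated decay, processed and retained-intron types. Both miR-24 precursors also have an annotated precursor on the other strand, Mir3074-1 and Mir3074-2. Their products held 2 reads (mmu-miR-3074-1-3p) and 1 read (mmu-miR-3074-5p) in parental exosomes and 0 in SDCSC exosomes.

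**Figure D1:**
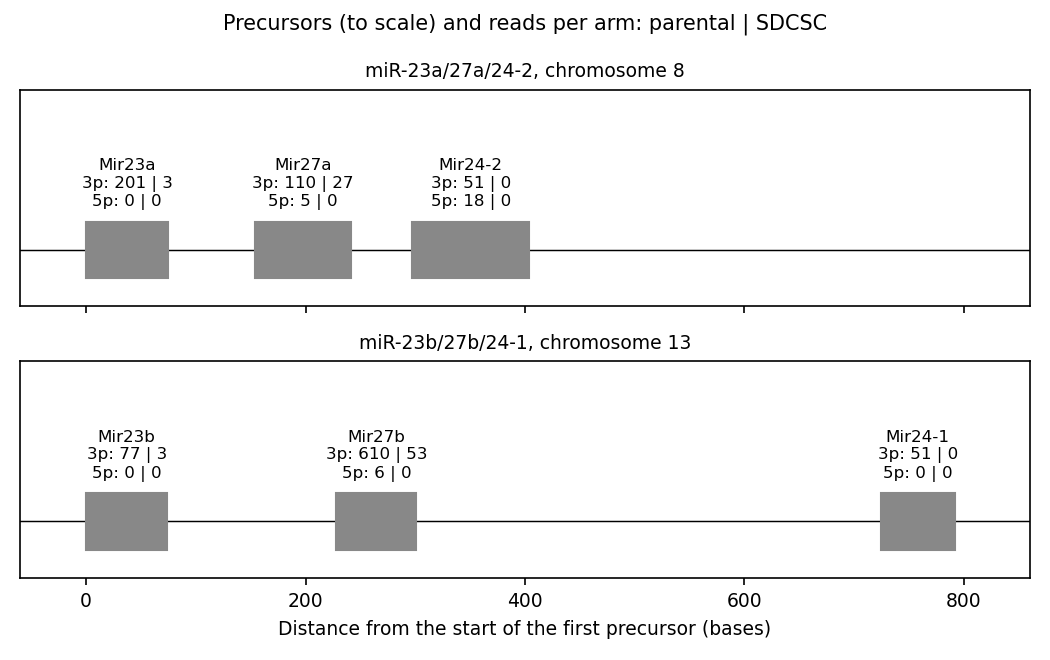
Map of the 6 precursors, drawn to scale by distance in bases from the start of the first precursor of each cluster; the reads of the 3p and 5p arm stand above each, parental before SDCSC exosomes. The same 51 and 0 reads of miR-24-3p are shown at both miR-24 precursors, since they cannot be assigned to a locus.

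The deposited values are RPM, reads scaled to a fixed total per library, and are whole multiples of 27.31 in parental and 217.77 in SDCSC exosomes, the worth of 1 read. The libraries therefore held 32162 and 3964 reads when each miRNA was counted by its highest entry, and shares below are percents of these totals. A count of 0 allows a share of up to 0.00933% in parental and 0.0757% in SDCSC exosomes, the worth of 3 reads. A list of 8 blood-associated miRNAs, among them miR-451a and miR-486a-5p, took 6.34% of parental reads and 0.0252% of SDCSC reads (8 and 1 of the 8 with a read). Most of these parental reads stood under miR-486a-5p and miR-486b-5p, with near-equal counts of 856 and 853. Whether the same reads were counted under both names was not tested, and if so 6.34% is too high. A list of 8 epithelial miRNAs took 0.171% and 0.0505%, of which miR-192-5p gave 48 of the 55 parental reads. Of its 5 members of the miR-200 family, which defines epithelial cells, miR-200a-3p, miR-200c-3p and miR-141-3p were at 0 in both libraries, and miR-200b-3p and miR-429-3p had 0 parental reads and 1 SDCSC read each. The part of these differences in the results below was not tested.

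The 5 members of the 3p arm together took 1049 reads in parental exosomes, 3.26% of the total (95% Wilson interval 3.07 to 3.46%), and 86 reads or 2.17% (1.76 to 2.67%) in SDCSC exosomes. The ratio of these shares was 0.665, with an exact 95% interval from 0.528 to 0.829. On the log2 scale it was -0.59. This is near the median of -0.57 over the 60 miRNAs with a read in each library and 50 or more together. This sum hides unlike members. The miR-27 pair went from 2.24 to 2.02% of reads, a ratio of 0.902 (0.706 to 1.14), whereas the miR-23 pair went from 0.864 to 0.151%, a ratio of 0.175 (0.0637 to 0.386). By cluster, miR-23a with miR-27a had a ratio of 0.783 (0.519 to 1.14) and miR-23b with miR-27b one of 0.661 (0.494 to 0.869), so that the division by seed family was the wider one. The log2 ratio of miR-23b with miR-27b, -0.60, was also near that median.

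In parental exosomes the most abundant member was mmu-miR-27b-3p with 610 reads (16660 RPM), 1.90% of the total (1.75 to 2.05%) and rank 14 among the 328 miRNAs with a read. It was followed by mmu-miR-23a-3p with 201 reads or 0.625% (0.545 to 0.717%), at rank 31. Next stood mmu-miR-27a-3p with 110 reads or 0.342% (0.284 to 0.412%), at rank 44. The intervals of these 3 miRNAs did not overlap. They are of equal length (21 bases), and no scaling by length was applied. Then came mmu-miR-23b-3p with 77 reads or 0.239% (0.192 to 0.299%), whose interval overlapped that of miR-27a-3p. It also overlapped that of mmu-miR-24-3p, which had 51 reads or 0.159% (0.121 to 0.208%). For scale, the leading miRNA of the library, miR-99b-5p, had 3927 reads or 12.2%.

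In SDCSC exosomes mmu-miR-27b-3p again led the members with 53 reads (11542 RPM), 1.34% of the total (1.02 to 1.74%) and rank 14 of 124. mmu-miR-27a-3p followed with 27 reads or 0.681% (0.469 to 0.989%), at rank 26. mmu-miR-23a-3p and mmu-miR-23b-3p had 3 reads each, 0.0757% (0.0257 to 0.222%), in a tie of 10 miRNAs at rank 60. mmu-miR-24-3p had 0 reads. The order of the members had thus changed, with both miR-27 paralogs ahead of both miR-23 paralogs. The leading miRNA here, miR-21a-5p, had 865 reads or 21.8%.

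**Figure D2:**
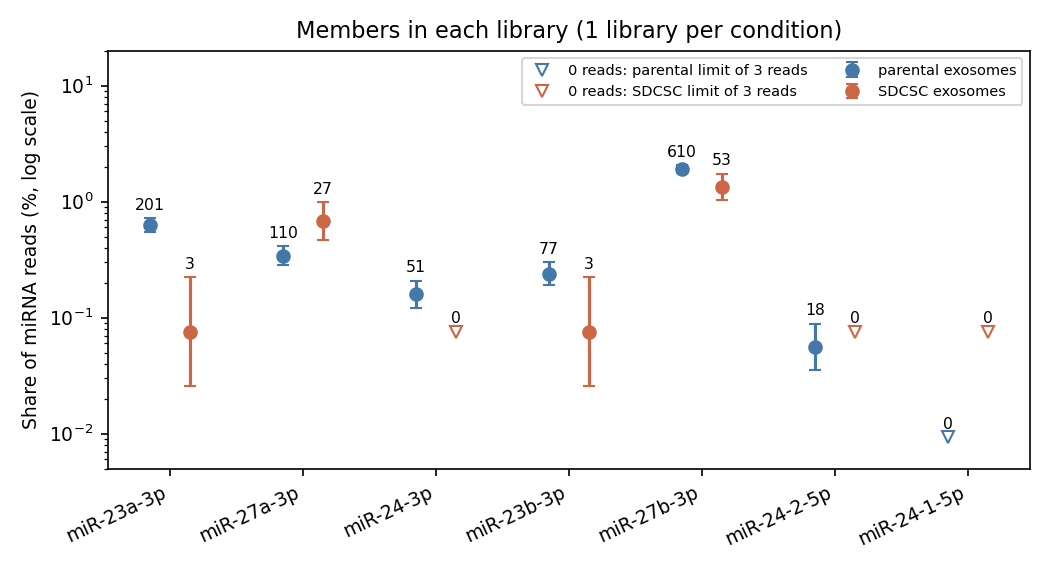
Share of miRNA reads (percent, log axis) of each member in parental and SDCSC exosomes, with 95% Wilson intervals and the reads written above each point; open triangles mark 0 reads and stand at the share of 3 reads. Of the members with a read in each library, only miR-27a-3p stands higher in SDCSC exosomes, from 0.342 to 0.681%, while both miR-23 miRNAs have 3 reads there. The triangles are limits and not levels, also where an SDCSC triangle stands above the parental mark.

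To ask whether SDCSC exosomes carry other amounts of these miRNAs than parental exosomes, the reads of each miRNA were set against the rest of its library by Fisher's exact test (two-sided), and the p-values of the 336 miRNAs with a read in either library were adjusted by the Benjamini-Hochberg method. A miRNA passed with an adjusted p under 0.05 and shares that differed by 1.5-fold or more. Such a test concerns the reads of 2 libraries, not the conditions. Of the 6 members tested, 1 passed as higher and 2 as lower. Over all 336 miRNAs, 4.76% passed as higher and 9.23% as lower (16 and 31 miRNAs, or 3 and 134 without library scaling). Among the 68 with 50 or more reads in the libraries together the shares were 14.7% and 45.6%. All 5 members of the 3p arm are among these 68, so 2 of 5 lower is near the background. Of the 60 miRNAs of this depth with a read in each library, the median log2 ratio was -0.57, and that of the 4 members among them was -1.08. These 4 values lie far apart, from -3.05 to 0.99, so their median describes none of them.

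Of the members with a read in each library, miR-23a-3p had the ratio farthest from 1. Its 201 parental reads would correspond to 24.8 reads at the SDCSC depth, and 3 were found. Its share fell 8.26-fold, and the log2 ratio was -3.05 (exact 95% interval from -5.34 to -1.48; Fisher's exact test, adjusted p = 3.43e-06). Its paralog miR-23b-3p had 3 reads where 9.49 correspond to the parental share. The log2 ratio of -1.66 (-3.97 to -0.0604) did not pass over all miRNAs (Fisher's exact test, adjusted p = 0.241). Summing both paralogs, which sets aside how reads were divided between them, gave 278 and 6 reads and a log2 ratio of -2.51 (-3.97 to -1.37).

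miR-27a-3p was the member that rose. Against 13.6 reads that correspond to its parental share, 27 were found, so that the share was 1.99-fold higher in SDCSC exosomes. The log2 ratio was 0.99, with an exact 95% interval from 0.33 to 1.61 (Fisher's exact test, adjusted p = 0.0170), and -2.03 without library scaling, where the direction turns. Its paralog miR-27b-3p had 53 reads where 75.2 correspond to the parental share, a log2 ratio of -0.50 (-0.94 to -0.0981), and did not pass (Fisher's exact test, adjusted p = 0.0776). With both summed, 720 and 80 reads gave a log2 ratio of -0.15 (-0.50 to 0.19). Most of these reads (610 of 720 and 53 of 80) are of miR-27b-3p. The sum therefore follows miR-27b-3p and cannot decide whether miR-27a-3p rose. The value for miR-27a-3p rests on telling apart miRNAs that differ at base 19, and how reads were divided between them was not tested.

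miR-24-3p had 51 reads in parental exosomes, which correspond to 6.29 reads at the SDCSC depth, and 0 were found. Set against the floor of 3 reads its share was at least 2.10-fold lower (Fisher's exact test, adjusted p = 0.0383). That bound takes the parental share as exact, and the exact 95% interval of the ratio, which covers the counting error of both libraries, ran from 0 to 0.609. With its entries at both precursors summed, the bound on the log2 scale moved from -1.07 to -2.09. These entries are equal and the floor stays at 3 reads, so the bound deepens by construction of the sum. With the most abundant miRNA of each library taken out of the totals it no longer passed (exact binomial test, adjusted p = 0.0594). Under TMM, median of ratios and deposited RPM the adjusted p ran from 0.0249 to 0.0390 (exact binomial test). The smallest of all alternatives, 5.63e-15 (exact binomial test), came without library scaling. That setting takes no account of the 8.11 times more reads of parental exosomes. At the same depth, a fall of miR-24-2-5p was not detectable, since its 18 parental reads correspond to 2.22 reads and the floor of 3 lies above that (Fisher's exact test, adjusted p = 0.752).

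**Figure D3:**
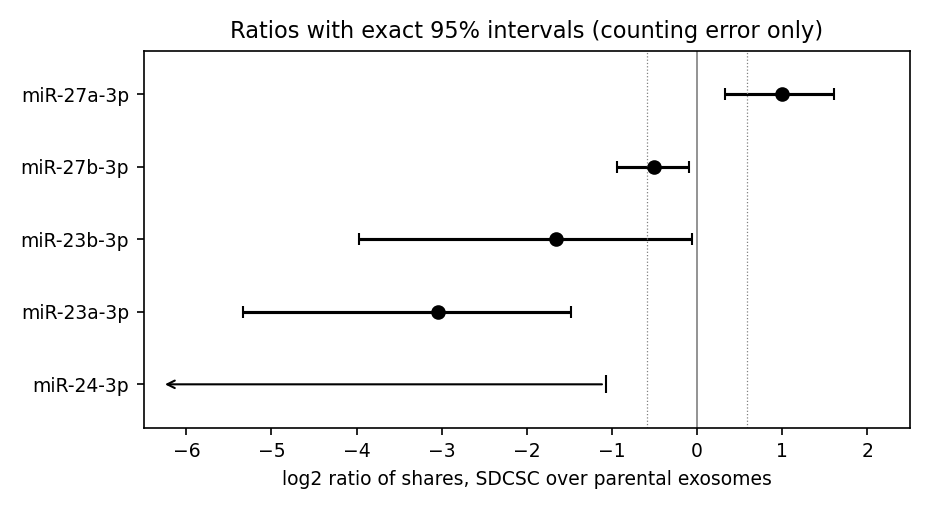
log2 ratio of shares, SDCSC over parental exosomes, for the 5 members of the 3p arm, with exact 95% intervals of counting error; the arrow of miR-24-3p starts at the bound set by 3 reads (its exact interval ends at -0.72), and dotted lines mark 1.5-fold. The interval of miR-27a-3p lies above 0 (its ratio is -2.03 without library scaling), and those of miR-27b-3p, miR-23b-3p and miR-23a-3p lie below it.

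Balances within a library do not depend on the library total. The reads of 8 pairs were compared in this way, 2 of paralogs and 6 of cluster partners, by the ratio of the SDCSC balance to the parental balance with an exact conditional 95% interval. The intervals were not adjusted for the 8 comparisons, and that of 4 pairs lay off 1. All pairs are built from the 5 members of the 3p arm, so they are not independent. Each of the 4 holds miR-27a-3p, miR-24-3p or both.

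Among paralogs, miR-27a-3p made up 15.3% of the miR-27 pair in parental exosomes (110 against 610 reads; Wilson interval 12.8 to 18.1%) and 33.8% in SDCSC exosomes (27 against 53 reads; 24.3 to 44.6%). The balance of miR-27a to miR-27b was thus 2.82 times that of parental exosomes (1.63 to 4.79), and miR-27b-3p remained the more abundant of the pair in both libraries. Of 44 pairs of miRNAs with a common seed and at least 50 reads each over both libraries, 45.5% had an interval off 1. Only miRNAs with a mature sequence in the RefSeq set could be paired in this way. The miR-23 pair is therefore not among the 44, as mmu-miR-23b-3p has no sequence there. miR-23a-3p made up 72.3% of the miR-23 pair in parental exosomes (66.8 to 77.2%) and 3 of 6 reads in SDCSC exosomes, for which the ratio of balances was 0.385 with an interval from 0.0504 to 2.93. No change in the balance of the miR-23 pair was therefore detected, and with 6 SDCSC reads the interval is wide.

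Among partners of the chromosome 8 cluster, the reads of miR-27a-3p were 0.547 times those of miR-23a-3p in parental exosomes and 9.0 times those in SDCSC exosomes. This shift, 16.3-fold with an interval from 4.86 to 86.0, was the largest of the pairs with a read of each miRNA in each library, and the order of these partners was inverted. In the chromosome 13 cluster, miR-27b-3p to miR-23b-3p stood at 7.92 in parental and 17.7 in SDCSC exosomes, a ratio of 2.23 with an interval that holds 1 (0.695 to 11.4). miR-27 was ahead of miR-23 from chromosome 13 in both libraries, but from chromosome 8 in SDCSC exosomes only.

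The reads of miR-24-3p were 0.464 times those of miR-27a-3p in parental exosomes, and with 0 against 27 reads in SDCSC exosomes the ratio of balances was 0 with an upper bound of 0.334. Against miR-27b-3p, 51 to 610 reads were followed by 0 to 53, with an upper bound of 0.896. Against miR-23a-3p and miR-23b-3p the upper bounds were 9.75 and 3.79, as 3 reads of each miR-23 leave the balance undetermined. Any part of miR-24-3p that comes from the other cluster is included in each of these values. Unequal ratios between partners were not particular to these clusters. Of 17 pairs of miRNAs from different precursors within 10 kb on a common strand and with at least 50 reads each, 58.8% had an interval off 1. The interval was off 1 for 3 of the 6 pairs given here and for 7 of the other 11. Pairs with a miRNA whose precursor had no position in the reference set are missing from the 17.

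**Figure D4:**
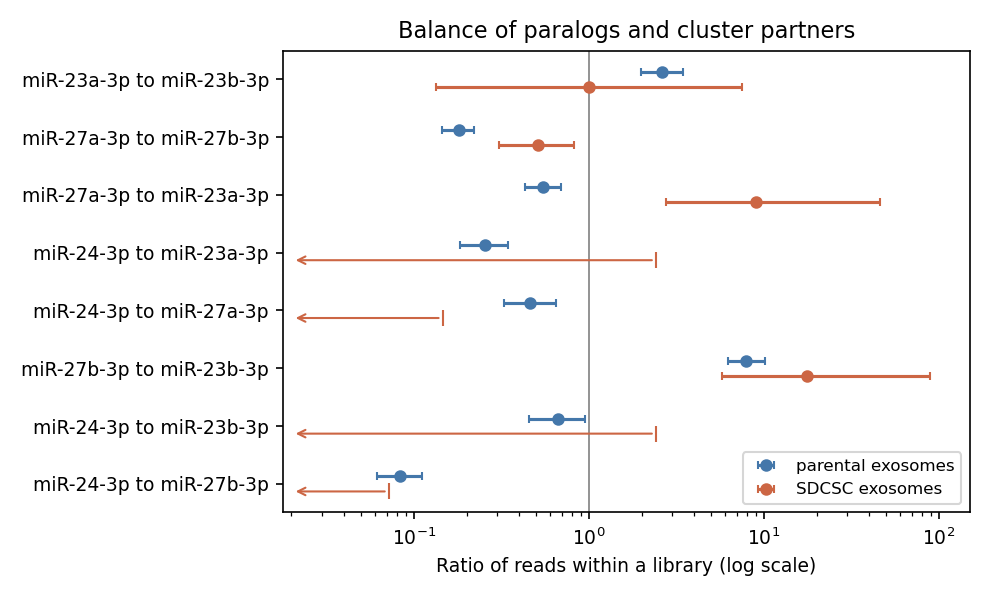
Ratio of the reads of each pair within parental and SDCSC exosomes (log axis), with exact 95% intervals; arrows start at the upper bound where SDCSC exosomes had 0 reads of miR-24-3p. The intervals of miR-27a-3p to miR-23a-3p are the farthest apart, at 0.547 and 9.0.

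The 5p arms were read in parental exosomes only. They summed to 29 reads there, 2.69% of the reads of the 6 precursors (1.88 to 3.84%), and to 0 of 86 in SDCSC exosomes, where the Wilson interval reaches 4.28% and a fall was not detectable. miR-24-2-5p held 18 of the 29 reads. It made up 26.1% of the 69 reads of both arms (17.2 to 37.5%) if all reads of miR-24-3p are counted to the chromosome 8 precursor. miR-24-1-5p, its counterpart from chromosome 13, had 0 reads in either library. The locus-specific reads of the miR-24 precursors, 18 against 0, thus all named the chromosome 8 cluster, although the neighbour on chromosome 13, miR-27b-3p, had 610 reads against 110 of miR-27a-3p. miR-27a-5p had 5 reads, 4.35% of its precursor (1.87 to 9.78%), and miR-27b-5p had 6 reads or 0.974% (0.447 to 2.11%). miR-23a-5p and miR-23b-5p had 0 reads beside 201 and 77 reads of their 3p arms.

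The miRNAs closest to each member in log2 ratio were taken from those with a read in each library and 50 or more together, by the absolute difference of log2 ratios over these 2 libraries. Nearest to miR-23a-3p were miR-210-3p, the classical hypoxia-induced miRNA, at -3.27 (78 and 1 reads) and miR-125b-1-3p at -2.82 (172 and 3 reads). Nearest to miR-23b-3p were miR-5099 at -1.57 (217 and 9 reads) and miR-423-3p at -1.79 (56 and 2 reads). miR-27b-3p stood beside miR-151-5p at -0.47 (202 and 18 reads) and miR-103-3p at -0.44 (66 and 6 reads). miR-27a-3p stood beside miR-29a-3p at 1.21 (137 and 39 reads) and miR-143-3p at 0.76 (888 and 185 reads). In the order of the 60 miRNAs, miR-23a-3p was the 8th from the lowest log2 ratio and miR-27a-3p the 8th from the highest, so members of a common precursor transcript stood near opposite ends.

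**Figure D5:**
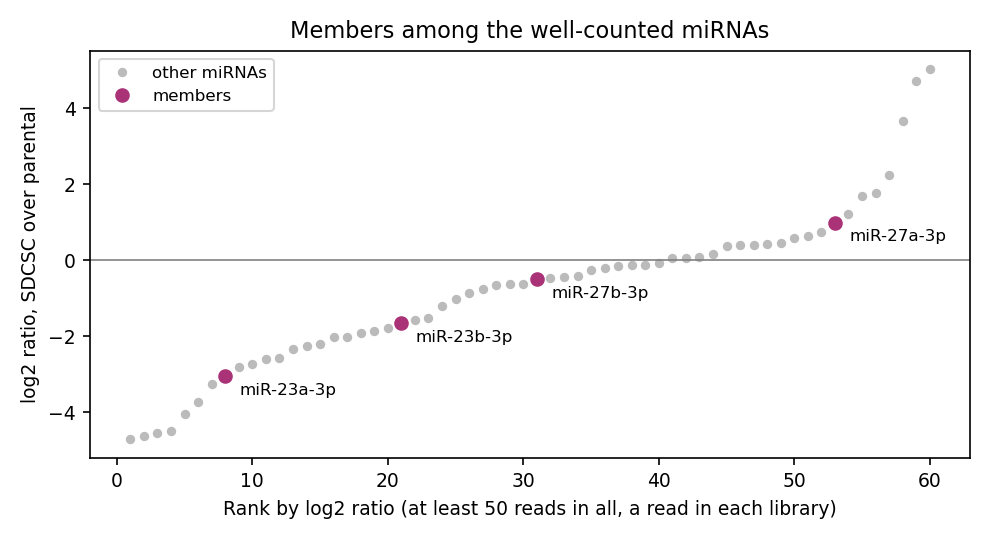
The 60 miRNAs with a read in each library and 50 or more together, ordered by log2 ratio of shares (SDCSC over parental exosomes), with the 4 members among them marked. miR-23a-3p at -3.05 and miR-27a-3p at 0.99 stand 8th from either end, with miR-23b-3p and miR-27b-3p between them.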

How the data were processed

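Small RNA libraries (TruSeq Small RNA kit, inserts of 18 to 40 nucleotides) were made from 1 preparation of parental and 1 of CT26-SDCSC exosomes. The authors clipped adapters, discarded reads under 18 nucleotides and deposited RPM values for each mature miRNA at each precursor, with genome build mm10 per the submitters' processing notes. For small noncoding RNA features of RepeatMasker and Rfam, the study's methods name ncPRO-seq and a normalization by reads shared between features. Whether this was applied to the miRNA values, and the miRBase release, are not given in the sources used here.

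Reads were recovered by dividing each RPM by the smallest one above 0. Within the rounding to 2 decimals, 100.0% of values above 0 were whole reads. They summed to 36615 and 4592 over 2061 entries. Of 83 miRNAs listed at several precursors, 29 had parental reads and 18 of these had equal entries, miR-24-3p among them, so the highest entry was used. With 1 library each, log-scale tests have no spread to rest on, and Fisher's exact test on recovered reads took their place, with Benjamini-Hochberg adjustment. It called 16 miRNAs higher and 31 lower. Under the other scalings, shares were tested by an exact binomial test. Intervals are 95% Wilson intervals for shares, exact (Clopper-Pearson) for ratios and exact conditional for balances. Scripts were tested on simulated data.

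The miRNAs named are all members, the other 5p arms of their precursors, miRNAs of their seeds, the 2 nearest in log2 ratio to each 3p member, and the most abundant miRNA of each library. miR-24-3p has no neighbours, as it has no ratio. The miR-3074 products and the blood-associated and epithelial lists were added after values were seen, as were the backgrounds of pairs. Members and lists were chosen with earlier results of these data known. Alternatives were TMM (edgeR 4.0.16), median of ratios, deposited RPM, no scaling, totals without the most abundant or the blood-associated miRNAs, sums of entries, summed paralogs, added reads, a filter of 10 reads and a fold of 2. Versions were R 4.3.3, Python 3.11.15, scipy 1.17.1, pandas 2.3.3, numpy 2.4.6 and matplotlib 3.10.9.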

Additional observations from a re-analysis of the deposited data

How the results depend on the processing

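No paired analysis was possible because neither condition was sequenced more than once, and no replicate could be left out. Of 70 recomputed values, 57 kept their direction and their side of the threshold or stayed within their interval. Without library scaling, under which all log2 ratios shift by -3.02 since parental exosomes had 8.11 times the reads, the log2 ratio was -2.03 for miR-27a-3p, -4.68 for miR-23b-3p and -3.52 for miR-27b-3p, the last 2 then passing the threshold, and 3 miRNAs passed as higher and 134 as lower. Summing paralogs gave -0.15 in place of the rise of miR-27a-3p and -2.51 for miR-23b-3p, which then passed, by construction of the sums. Totals without the most abundant miRNA of each library, a shift of 0.15, brought the bound of miR-24-3p to -0.92. That bound is past 1.5-fold, but with an adjusted p of 0.0594 (exact binomial test) miR-24-3p no longer passed. The same totals brought the share of the 3p members to 3.92% in parental and 2.89% in SDCSC exosomes. Totals without the blood-associated miRNAs, an alternative chosen after seeing the data, took miR-27b-3p to -0.60 and past the threshold. That shift includes the reads of both miR-486 names, which may be the same reads. Sums of entries count miR-24-3p at each of its precursors and gave a bound of -2.09 for it, 3.004% for the parental share and 15.0% for the 5p share of Mir24-2. The adjusted p of miR-27a-3p ran from 0.00483 to 0.0471 under the scalings that kept its direction. Depth limits the statements on miR-23 and miR-24 in SDCSC exosomes, with 3964 reads in all.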
